A study of Mus musculus with 22 samples.

Results

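Ischemic gastrocnemius muscles of 22 mice were ordered by a score read from their own arrays, and the 7 muscles with the highest score were compared with the 7 with the lowest, whichever oligonucleotide the mice had received. The rule asked for 5 genes, the macrophage genes Cd68, Csf1r and Lyz2 and the genes of regenerating fibres Myog and Myh3. Cd68 and Myh3 have no named probe in the annotation used here, so the score was taken over 3 genes, Csf1r, Lyz2 and Myog. For each mouse it is the average deviation of these genes, on the log2 scale, from their means over the 22 arrays. The 14 muscles compared are called high-score and low-score muscles, and the 8 others are called middle muscles. The contrast was intended to set more damaged muscles against less damaged ones. No measure of damage other than gene expression was analysed here, so the names used are those of the score. Because the score was taken from the same arrays, every difference between the classes is a description, given without a test.

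All mice were male C57BL/6N mice aged 8 to 12 weeks, named non-diabetic in the labels, and all underwent removal of the femoral artery. Each received 12 mg/kg of a locked nucleic acid (LNA) oligonucleotide on day 5, and the muscle was taken on day 7. In 11 mice the oligonucleotide was ANTI-210, directed against miR-210, a microRNA induced by low oxygen, and in 11 it was SCR, a scrambled control sequence. No uninjured or uninjected muscle was analysed here, so each class is described against other ischemic, injected muscles. Each array, an Illumina MouseWG-6 v2 BeadChip on which a probe is read by many beads, holds the RNA of 1 mouse.

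After the blood supply of a limb muscle is cut, fibres die and are cleared by macrophages, while satellite cells, the stem cells of muscle, divide, fuse and build new fibres that pass through an embryonic stage. Csf1r is the receptor that keeps macrophages alive, Lyz2 is their lysozyme, and Myog (myogenin) is the transcription factor that drives myoblasts into differentiation. Myogenin and its relatives bind E-boxes, short motifs in the promoters of muscle genes, among them the palindrome CAGCTG. The macrophage factor PU.1 binds purine-rich ETS sites.

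4 stretches of promoter are shown. Their genes were higher in the high-score muscles and were picked because these stretches hold a motif, so its presence in them is no result. The shares of all genes that hold each motif are given below. Of these genes 2 encode subunits of the acetylcholine receptor, and their stretches hold 2 copies each of the E-box CAGCTG. The others are C1qc of the complement list and Ctsc of the lysosome list, whose promoters hold an ETS site. Other forms of E-box were neither searched for nor marked. The stretches come from RefSeq (GRCm38.p6). They are written 5′ to 3′ on the gene's strand, upstream of the annotated start, with the motif in capitals. Chrng lies on the + strand at chr1:87205646-87205695, Chrna1 on the - strand at chr2:73580371-73580440, C1qc on the - strand at chr4:136893080-136893129 and Ctsc on the + strand at chr7:88277914-88277963.
Chrng: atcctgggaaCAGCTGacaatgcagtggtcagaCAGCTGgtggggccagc
Chrna1: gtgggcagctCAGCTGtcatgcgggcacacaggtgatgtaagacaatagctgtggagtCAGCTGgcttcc
C1qc: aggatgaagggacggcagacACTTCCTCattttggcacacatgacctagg
Ctsc: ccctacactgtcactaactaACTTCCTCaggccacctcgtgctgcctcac
The microRNA that ANTI-210 was designed against is shown for the comparison of treatments, with its seed (bases 2 to 8) in capitals. It lies on the - strand at chr7:141221407-141221428.
miR-210-3p: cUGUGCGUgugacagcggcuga

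The score ran from -1.67 to 1.54. The high-score muscles were SCR replicates 6, 7 and 8 and ANTI-210 replicates 2, 3, 9 and 11, with scores from 0.69 to 1.54. The low-score muscles were SCR replicates 1, 5, 9 and 11 and ANTI-210 replicates 5, 6 and 7, with scores from -1.67 to -0.58. Just outside the high class lay ANTI-210 replicate 8 at 0.57, beside the lowest member at 0.69. Just outside the low class lay SCR replicate 4 at -0.57, beside the highest member at -0.58, so that boundary parts 2 muscles with nearly the same score. The widest gap in the middle of the order was 0.64 wide, between 0.46 and -0.18, and left 9 muscles above it and 13 below.

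The genes of the score moved together over the mice. Ranked by Csf1r and Lyz2 alone or by Myog alone, the 7 highest muscles were the same 7, and 5 of the 7 lowest were shared. Csf1r ran from 10.28 to 11.23 (median 10.82) in the high-score muscles and from 8.47 to 9.57 (median 9.27) in the low-score muscles. Lyz2 ran from 13.07 to 13.89 (median 13.74) and from 10.29 to 11.71 (median 11.05). Myog ran from 9.92 to 10.94 (median 10.32) and from 7.54 to 8.60 (median 8.15). These values chose the classes and are no result.

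**Figure D1:**
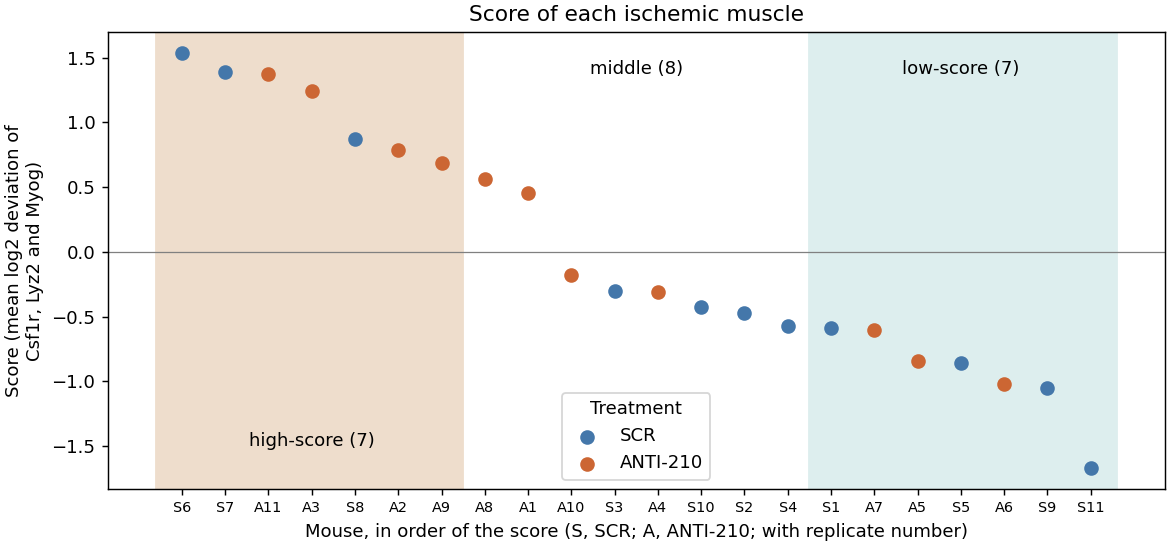
Score of each of the 22 muscles (vertical axis, mean log2 deviation of Csf1r, Lyz2 and Myog), in order from the highest to the lowest, with 1 point per mouse coloured by treatment. The shaded bands hold the 7 high-score and the 7 low-score muscles, SCR and ANTI-210 mice stand in both bands, and the lowest muscle at -1.67 stands apart from the next at -1.05.

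Across 18521 other genes, 950 were higher and 522 lower in the high-score muscles, by a call that asked for ranges that do not overlap and for means at least 1 log2 unit (2-fold) apart. These are 5.13% and 2.82% of the genes, 7.95% in all (1472 genes), and since the score comes from the same arrays nothing is read from the shares. With the ranges apart and no least difference, 2286 genes (12.3%) were higher and 1873 (10.1%) were lower. Of the 8825 genes with a mean of 6 or more on the log2 scale, 1312 (14.9%) were called. The 7.95% and the 14.9% stand beside the counts of the gene lists below. The median difference of all genes was -0.01. The arrays are quantile normalized, so differences are relative to the other probes of the array. In whole muscle, fewer cells of a type and less RNA per cell cannot be told apart. The shares of probes at or above 6 on the log2 scale were close, from 37.5% to 37.7% in the high-score and from 37.3% to 37.5% in the low-score muscles.

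The 15 largest increases ran from 2.72 to 3.40 log2 units. Ptn, a heparin-binding growth factor, was the largest at 3.40 (10.6-fold). It ran from 10.54 to 11.54 (median 11.40) in the high-score muscles and from 7.13 to 8.68 (median 7.59) in the low-score muscles. A second probe of Ptn, with a mean of 4.47 at the floor of the array, showed a difference of -0.01. Mymk (myomaker), the membrane protein that lets myoblasts fuse, ran from 8.84 to 10.10 (median 9.48) against 4.82 to 7.06 (median 6.26), a difference of 3.24, and its second probe gave 3.03. Chrng, the acetylcholine receptor subunit of fetal muscle, ran from 10.97 to 12.21 (median 11.48) against 7.74 to 9.21 (median 8.83), a difference of 2.96.

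Several others were matrix proteins or proteases. Tnc (tenascin-C, a matrix glycoprotein of healing tissue) ran from 10.93 to 13.03 (median 12.77) against 8.21 to 9.71 (median 9.18), a difference of 3.20. Lrrc15, a membrane protein of activated fibroblasts, differed by 3.08, Cthrc1, secreted by such cells, by 2.89, and Ccn4, a matricellular protein, by 2.76. Mmp9 (gelatinase B) ran from 7.89 to 11.41 (median 9.49) against 5.99 to 7.21 (median 6.35), a difference of 3.21 with a wide spread in the high-score muscles (SD 1.26, n = 7). Mmp12, the macrophage elastase, differed by 2.83 and Adam12, a metalloprotease of regenerating muscle, by 2.72. Of these genes the classes stood closest in Mmp12, whose lowest high-score value of 6.72 lay beside a low-score value of 6.65.

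Gpnmb, a glycoprotein of macrophages that have taken up debris, ran from 12.80 to 13.59 (median 13.05) in the high-score muscles and from 9.41 to 10.89 (median 10.09) in the low-score muscles, a difference of 2.98. Sox11, a transcription factor of developing tissues, differed by 3.02, the elongation factor-like gene Tceal6 by 2.81, the neuropeptide gene Gal by 2.74 and the secreted C1q-like protein gene C1qtnf3 by 2.74. Gal ran from 6.60 to 9.44 (median 8.10) in the high-score muscles but from 4.94 to 5.92 (median 5.15) in the low-score muscles, all of which lay under 6, close to the floor.

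The 15 largest decreases ran from -2.61 to -3.29 log2 units. Odf3l2 ran from 4.68 to 8.44 (median 5.37) in the high-score and from 8.82 to 10.22 (median 9.38) in the low-score muscles, a difference of -3.29. Of its high-score values 4 of 7 were under 6, near the floor, so the size of the difference and its rank are uncertain. The same holds for 6 of 7 high-score values of Myh7, 5 of Tigar and 3 each of Kcng4, Aqp4 and Smco1, and among the increases for all 7 low-score values of Gal and Adam12, 6 of Mmp12, 5 of Tceal6 and 1 each of Mymk and Mmp9. Myl2, the regulatory light chain of slow myosin, ran from 8.46 to 12.70 (median 10.56) against 13.11 to 14.68 (median 13.84), a difference of -3.29. Myh7, the slow myosin heavy chain, ran from 4.82 to 6.20 (median 5.01) against 6.62 to 9.62 (median 8.10), a difference of -2.88. Myl3, the essential light chain of slow fibres, differed by -2.82.

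Among channels, Scn4b (a sodium channel beta subunit) ran from 7.72 to 11.37 (median 9.73) in the high-score muscles against 12.30 to 12.76 (median 12.43) in the low-score muscles, a difference of -3.15. Aqp4, the water channel of the fibre membrane, ran from 4.86 to 7.51 (median 6.22) against 8.98 to 9.73 (median 9.34), a difference of -3.14. Kcng4, a modulatory potassium channel subunit, differed by -3.21. The remaining leading decreases were Tspan8 (a tetraspanin, -2.98), Dusp26 (a phosphatase, -2.94), Amd2 (polyamine synthesis, -2.92), Ppp1r1a (an inhibitor of protein phosphatase 1, -2.89), Rasd2 (a small GTPase, -2.87), Smco1 (-2.76), Tigar (a sugar phosphatase, -2.71) and Magix (-2.61). Amd2 is nearly identical to Amd1, so its probes may read both genes.

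**Figure D2:**
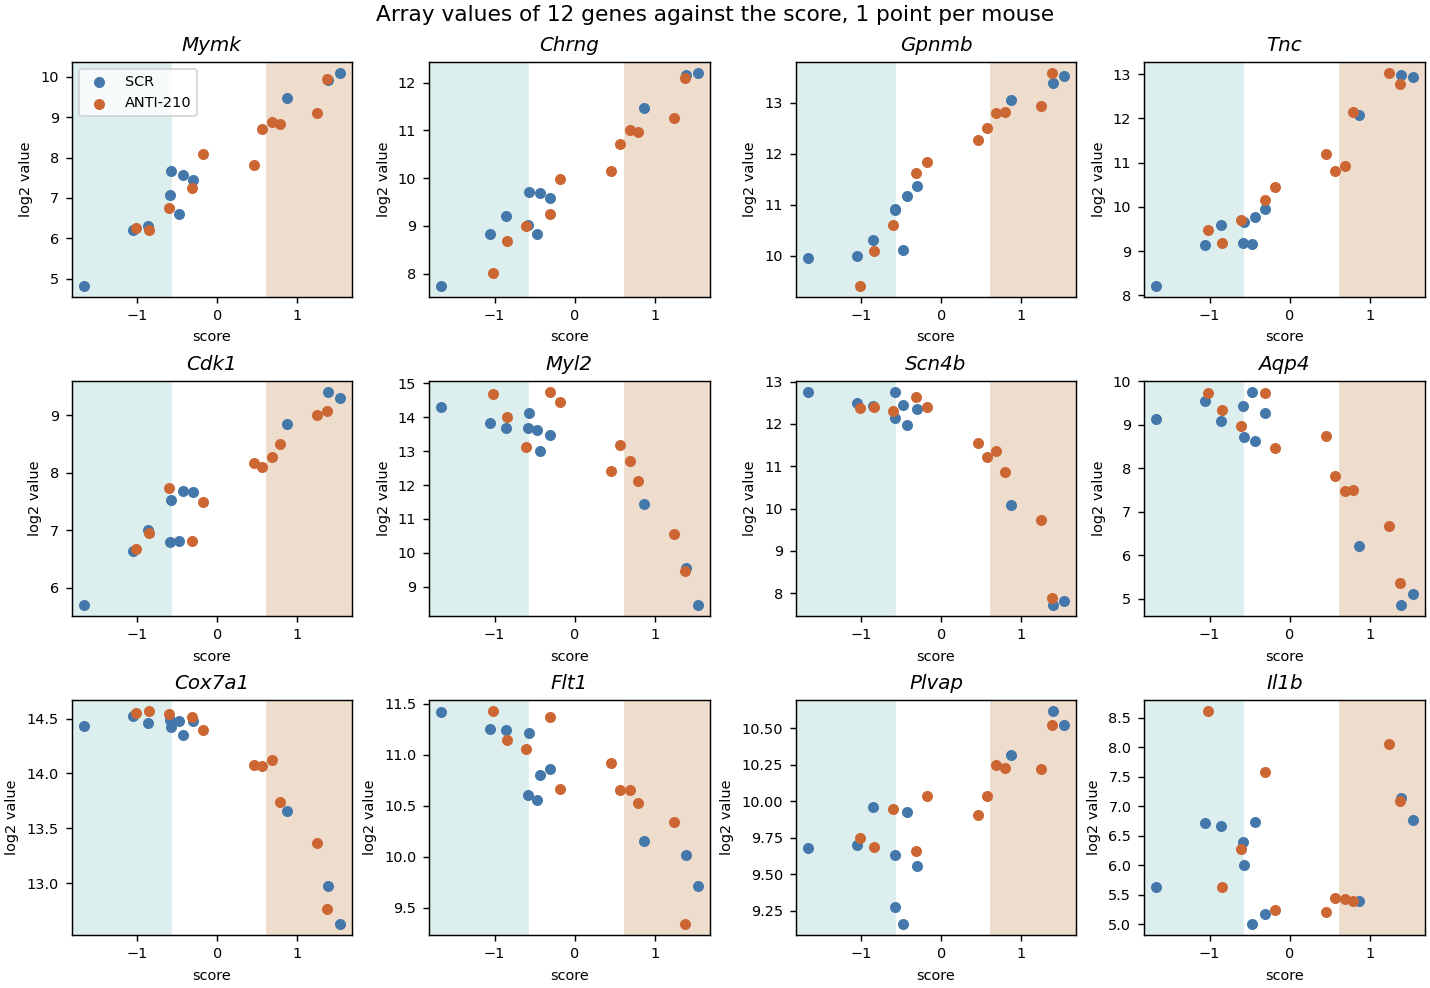
Log2 value (vertical axes, each with its own range) of 12 genes against the score (horizontal axes), with 1 point per mouse coloured by treatment and the high-score and low-score classes shaded on the right and left. Mymk, Chrng, Gpnmb, Tnc and Cdk1 are higher at high scores, Myl2, Scn4b, Aqp4 and Cox7a1 are lower, Flt1 (-1.06) and Plvap (0.67) differ less, and Il1b overlaps between the classes.

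The lower genes were spread widely among high-score muscles and narrowly among low-score muscles. Scn4b lay between 11.98 and 12.76 in all 13 muscles below the widest gap of the score and between 7.72 and 11.54 in the 9 above it. Cox7a1 lay between 14.35 and 14.57 in the 13, near the highest value of the arrays, 15.4, and between 12.63 and 14.12 in the 9. Mymk was spread on both sides, from 4.82 to 8.08 and from 7.82 to 10.10. Over the 522 lower genes the median SD was 0.45 in the high-score and 0.19 in the low-score muscles, and 471 of them (90.2%) had the larger SD in the high-score class. Of the 950 higher genes 744 (78.3%) did, and of the 17049 genes without a call 49.7% did. The part of values near the floor or near the highest value in these shares was not tested.

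The middle muscles lay between both classes for 1466 of the 1472 called genes, and nearer to the low-score class. Of the way from the low-score to the high-score mean they stood at a median of 29.0% for the higher genes and 19% for the lower genes, beside 38.1% for the score itself. By mouse, the median of the lower genes below the low-score mean was -1.78 in SCR replicate 6, -1.59 in SCR replicate 7 and -1.68 in ANTI-210 replicate 11, the 3 highest scores, and -0.74 in ANTI-210 replicate 9, the lowest score of the high class.

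Of 38 gene lists with 611 measured memberships, the matrix list had the most members called. Of its 25 measured genes 21 were higher and none lower, with a median difference of 1.67 beside -0.01 for all genes. Its largest differences after Tnc were in Lox (lysyl oxidase, which crosslinks collagen, 2.31), Thbs2 (thrombospondin 2, 2.31) and Fn1 (fibronectin, 2.29). Lox ran from 11.13 to 12.83 in the high-score and from 9.37 to 10.48 in the low-score muscles. The collagens Col1a1 (2.04), Col5a1 (2.04), Col1a2 (1.93) and Col3a1 (1.73) were all higher, while Dcn (decorin, 0.00) and Eln (elastin, 0.36) were not called. Of 10 measured genes of fibro-adipogenic progenitors, the connective tissue stem cells of muscle, only Mfap5 (1.49) was called, and the median was 0.10, which turned to -0.01 in ANTI-210 mice alone. The members split, since 4 had ranges apart and higher, among them Pdgfra (0.64), and 1 had ranges apart and lower, Pi16 (-0.81). A second probe of Pdgfra gave -0.02. Acta2, smooth muscle actin, also a gene of myofibroblasts, was higher by 2.07 and was the only call among 15 genes of smooth muscle and pericytes. Of 13 basement membrane genes Col18a1 (1.90) and Nid2 (1.06) were higher. This share is close to the 14.9% called in either direction among all genes not near the floor.

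Macrophage genes other than those of the score followed the same order. Of 21 measured genes 11 were higher and none lower, with a median of 1.51. Lgals3 (galectin-3) ran from 13.17 to 14.22 (median 13.63) against 10.86 to 11.57 (median 11.33), a difference of 2.44. Tyrobp (2.37) and Fcer1g (2.23), adaptors of activating receptors, and Ctss (cathepsin S, 2.22) came next, and Adgre1, a surface marker of mouse macrophages, was higher by 1.72. Cd163, a scavenger receptor of resident macrophages, differed by -0.95 without a call.

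Of 14 genes of lipid-laden and repair macrophages 7 were higher, with a median of 1.37. They included Trem2, a receptor for lipids of dead cells, from 10.22 to 11.46 against 7.61 to 9.15 (difference 2.50), Apoe (2.10) and Ctsk (1.86). Of 17 lysosome genes 11 were higher (median 1.21), led by Lgmn (1.80) and Grn (1.77), and Ctsc, printed above, was higher by 1.08. Of 14 complement genes 4 were higher, the 3 chains of C1q (C1qb 2.33, C1qc 2.10 and C1qa 1.81) and Cfp (1.22), with a median of 0.50.

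Chemokines split within their list. Ccl3 (2.40), Cxcl16 (1.96), Ccl8 (1.70), Tgfb1 (1.36) and Il18 (1.13) were higher, 5 of 23, with a median of 1.11. Ccl4 (2.14) and Ccl7 (2.03), both attractants of monocytes, differed as much, but their ranges overlapped. Ccl11 (eotaxin) differed by -1.13, Tnf by 0.05 and Il1b by -0.10, all without a call. Of 16 interferon-induced genes 15 had a positive difference, and only Oasl2 (1.40) was called, with a median of 0.74. Of 12 genes of antigen presentation by MHC class II and dendritic cells only Cd74 (1.08) was called, with a median of 0.69.

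Of other leukocytes 1 neutrophil and 1 lymphocyte gene was called, shares close to the 7.95% of all genes. Among 12 neutrophil genes Mmp9, which other cells make as well, was the only one higher, and the median was -0.03. The defining markers S100a8 (-0.07) and S100a9 (-0.53) were measurable without a call, and Mpo, Elane and Camp lay at the floor. Csf3r, another gene of the list, was higher by 0.86, under the least difference. Its ranges were apart, from 6.69 to 7.76 against 5.96 to 6.57, and its 3 other probes gave 0.09 to 1.22. In all, 7 of the 12 neutrophil genes had a mean under 6. Of 12 lymphocyte genes only Nkg7 (1.35), a gene of cytotoxic cells, was higher, and Cd4 and Cd8a lay at the floor. The summed level of the list, its mean deviation per muscle from the mean over the mice, ran from -0.04 to 0.53 in the high-score and from -0.35 to -0.07 in the low-score muscles, without overlap. For neutrophils the summed levels overlapped, from -0.12 to 0.35 and from -0.31 to 0.21. The part of lymphocytes in the other results was not tested.

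Genes of muscle regeneration were higher at several steps. Of 15 genes of satellite cells and myoblasts 7 were higher (median 0.77), among them Msc (1.78), Ncam1 (1.74), Megf10 (1.70) and Myod1 (1.12), while the stem cell genes Pax7 (0.01) and Myf5 (0.02) lay at the floor in both classes. Of 17 genes of embryonic, neonatal and regenerating fibres 9 were higher (median 1.08). Myl4, the embryonic light chain, ran from 14.61 to 15.08 (median 14.84) against 11.75 to 12.91 (median 12.66), a difference of 2.34. Nes (nestin) was higher by 1.81. Myh8, the neonatal myosin, differed by 0.74 without a call, with means of 15.3 in the high-score and 14.6 in the low-score muscles, near the highest value of the arrays, 15.4.

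Subunits of the acetylcholine receptor were called unevenly. Chrng (2.96), Chrna1 (2.15) and Chrnd (1.24) were higher, while Chrne, the subunit that replaces Chrng in adult muscle, differed by -0.53 and Chrnb1 by 0.61. Chrna1 ran from 12.28 to 13.29 (median 12.66) against 10.39 to 11.00 (median 10.59). Runx1, a factor induced by loss of the nerve, was higher by 1.88. The receptor's clustering genes Musk (-0.30), Lrp4 (-0.27), Dok7 (-0.13) and Rapsn (0.08) were not called, and the list as a whole had 5 of 14 genes higher and a median of 0.35.

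Cell division genes were higher, 12 of 26 with a median of 0.96. Cdk1, the mitotic kinase, ran from 8.27 to 9.41 (median 9.01) against 5.70 to 7.73 (median 6.80), a difference of 2.13. Birc5 (2.0) and Top2a (1.99) differed to a similar degree. The largest difference of the list was in Cdkn1a, an inhibitor of division that is also raised in differentiating myoblasts, at 2.46, with a range from 10.39 to 11.64 against 8.33 to 9.01. All 18 cytosolic ribosomal protein genes had a positive difference (median 0.55), 13 with ranges apart, but only Rpl3 (1.22) reached the least difference.

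**Figure D3:**
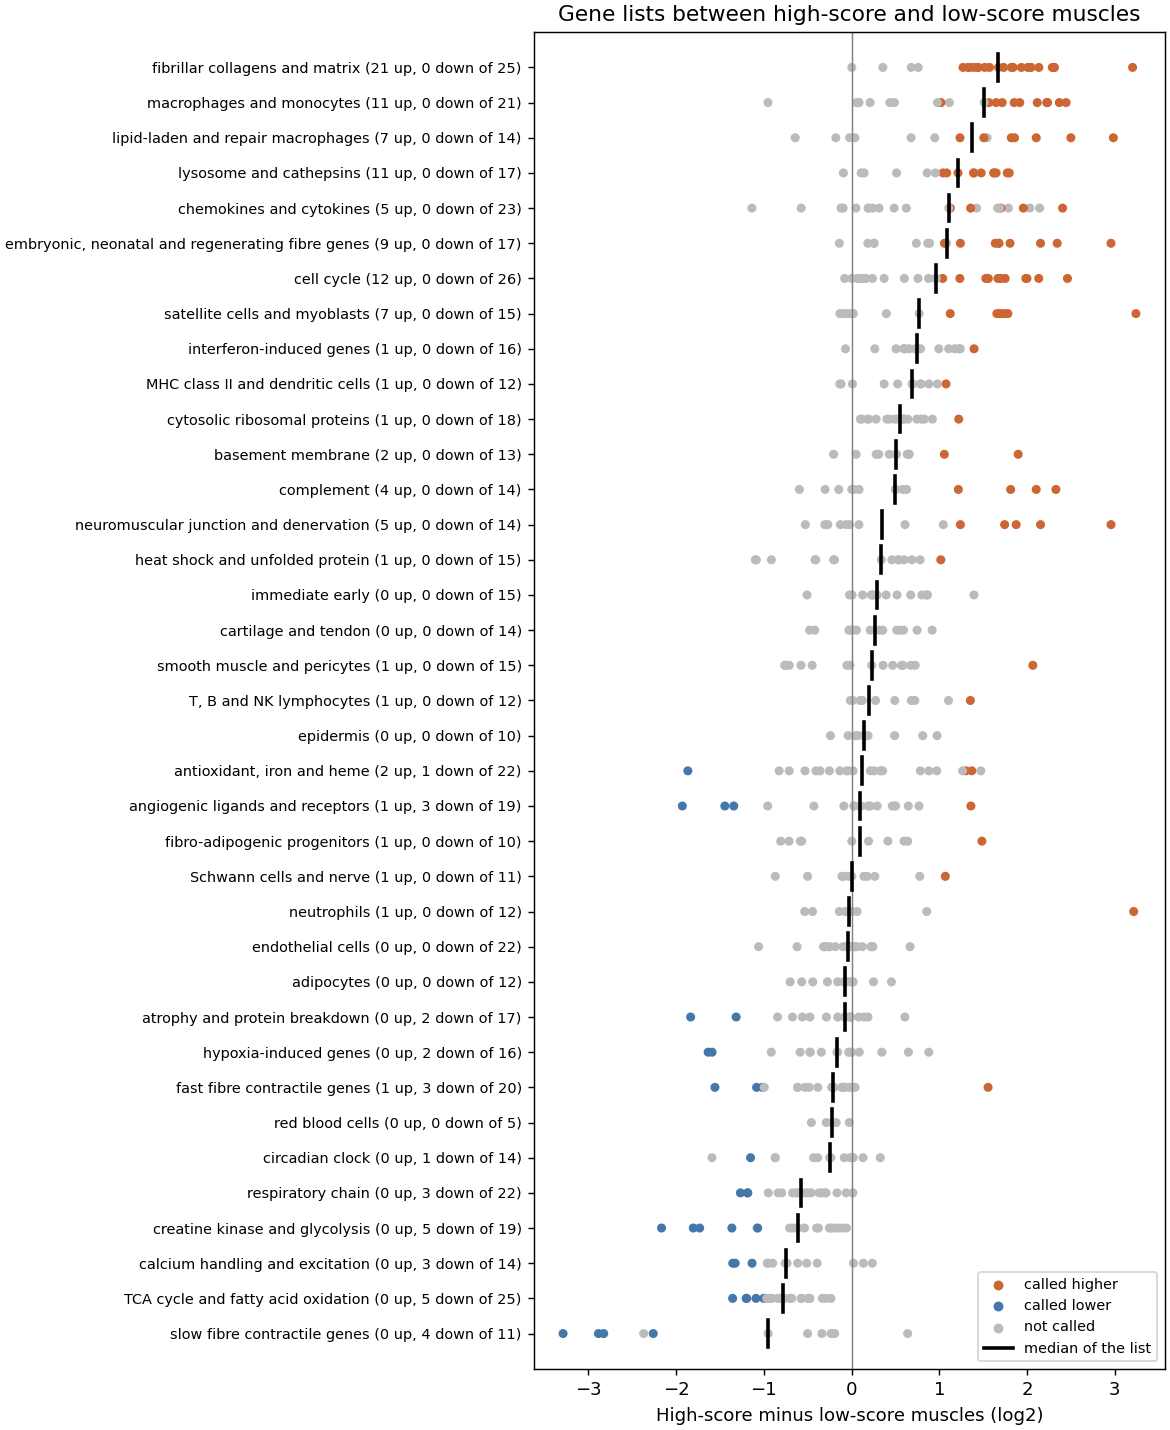
Difference between high-score and low-score muscles (horizontal axis, log2 of the means, 7 mice each) for every measured member of 37 gene lists, with 1 point per gene, a black bar at the median of the list and the calls in colour. Lists of matrix, macrophages and regeneration lie on the right, lists of slow contraction and energy metabolism on the left, and endothelial genes around 0.

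Contractile genes of slow fibres were lower, 4 of 11 with a median of -0.95, namely Myl2, Myh7, Myl3 and Tpm3 (-2.26). The probes of Tpm3 disagreed, 5 giving -2.26 to -3.22 and 1 giving 1.25, and the gene makes several isoforms. Ankrd2 (-2.37), a stretch-responsive protein, overlapped between the classes, and Tnni1, the slow troponin I, differed by 0.64. Genes of fast fibres differed less, with 3 of 20 lower (Mylk2 -1.56, Ldb3 -1.08 and Mybpc2 -1.02), Tpm1 higher by 1.56 and a median of -0.21. Beside these calls stand the 14.9% called in either direction among all genes not near the floor. In 15 of the 20 both class means were over 13, close to the highest value, and the part of that limit in the small differences was not tested. Acta1 (-0.10), Tnnt3 (-0.11) and Myh4 (-0.53) are among these.

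Transcripts of energy metabolism had negative differences in nearly all members, of which a minority was called. Beside these calls stand the 14.9% called in either direction among all genes not near the floor. All 25 genes of the TCA cycle and fatty acid oxidation had a negative difference (median -0.78), 16 with ranges apart, and 5 were called, Mdh1 (-1.35), Cpt1b (-1.20), Fabp3 (-1.19), Sucla2 (-1.09) and Acadvl (-1.0). Of 22 respiratory chain genes 21 had a negative difference (median -0.57) and 3 were called, a share close to the 14.9%. Cox7a1, a muscle subunit of cytochrome oxidase, ran from 12.63 to 14.12 (median 13.37) against 14.43 to 14.57 (median 14.52), a difference of -1.18, and Ndufa4 (-1.27) and Ndufb5 (-1.18) were like it. All 19 genes of creatine kinase and glycolysis were negative (median -0.61), and 5 were called, Fbp2 (-2.16), the phosphorylase kinase subunits Phkg1 (-1.80) and Phka1 (-1.73), Ckmt2 (-1.36) and Pygm (-1.07). Both class means were over 13 in 15 of the 22 respiratory chain genes and in 14 of the 19 of creatine kinase and glycolysis, the same limit as for the fast fibre genes. Of 14 genes of calcium handling and excitation Clcn1 (the muscle chloride channel, -1.35), Kcnj11 (-1.33) and Jsrp1 (-1.13) were lower. The calls of this list also stand beside the 14.9%.

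Genes of vessels did not follow the score as a list. None of 22 endothelial genes was called, and the median of -0.04 took the opposite sign under 3 of 15 alternative settings. Pecam1 (-0.18), Cdh5 (0.12) and Cldn5 (0.04), which define the cell type, were well measured, with class means between 9.5 and 10.1. Flt1, a VEGF receptor, differed most, from 9.34 to 10.65 against 10.61 to 11.43 (difference -1.06), with ranges that overlapped between 10.61 and 10.65. Plvap was the 1 endothelial gene with ranges apart, from 10.22 to 10.62 against 9.28 to 9.96, but differed by only 0.67. Ptprb (-0.62) and Tek (-0.32) overlapped between the classes. Ligands made by muscle fibres and other cells were called in both directions. Fgf1 (-1.93), Angpt1 (-1.44) and Vegfa (-1.34) were lower and Hgf (1.36), a growth factor for satellite cells, was higher. Other probes gave -1.46 for Fgf1, -0.60 and -0.02 for Angpt1, -1.44 and 0.00 for Vegfa and -0.04 and 0.50 for Hgf. Angpt1 and Hgf had means over the mice of 5.83 and 5.47, near the floor. Vegfa ran from 9.50 to 11.43 (median 10.59) against 11.60 to 12.16 (median 11.89).

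Lists of low oxygen, atrophy, stress and clock genes had from 0 to 3 members called, beside 7.95% of all genes. Of 16 hypoxia-induced genes Vldlr (-1.63) and Egln1 (-1.59) were lower and none higher, and Hif1a differed by 0.88. Of 17 atrophy genes Fbxo40 (-1.83) and Fbxo32 (-1.31), muscle ubiquitin ligases, were lower. Among antioxidant, iron and heme genes Ftl1 (1.37) and Mt1 (1.30) were higher and Nqo1 (-1.86) lower, and Hmox1 (1.47) overlapped. Of 14 clock genes Nr1d1 (-1.15) was lower, and the median of -0.24 was -0.60 in SCR and -0.08 in ANTI-210 mice alone. Of 15 heat shock genes Pdia4 (1.02) was higher, and the median of 0.34 turned to -0.10 in ANTI-210 mice alone. None of 15 immediate early genes was called. A list of genes assayed by qPCR alongside these arrays had 5 of 14 higher and 3 lower, with a median of -0.19 that turned to 0.18 in SCR mice alone and took the opposite sign under 2 of 15 settings. It may have been chosen on these animals, so its count is no independent evidence.

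Markers of other tissues that could enter a dissected muscle were counted beside these results. None was called among 12 adipocyte, 14 cartilage and tendon, 5 red blood cell and 10 epidermal genes, and 1 of 11 nerve genes was called (Ngfr, 1.07). The summed level ran for epidermis from -0.37 to 1.21 in the high-score and from -0.36 to 0.17 in the low-score muscles. For adipocytes it ran from -0.38 to 0.53 and from -0.31 to 0.98, for cartilage and tendon from -0.01 to 0.36 and from -0.56 to 0.24, for red blood cells from -0.83 to 1.19 and from -0.04 to 0.71, and for nerve from -0.08 to 0.20 and from -0.46 to 0.18. The ranges of the classes overlapped in each list. Several defining markers were close to the floor in both classes, namely Krt5 and Krt1 of the epidermis, Plin1 and Fabp4 of adipocytes and S100b and Nefl of nerve. Others were measurable. Adipoq (adiponectin) of adipocytes had a mean of 9.75 in the low-score muscles and was 0.25 higher in the high-score muscles, without a call. Means in the high-score and low-score muscles were 8.90 and 9.77 for the myelin gene Mbp, 13.7 and 13.9 for the globin gene Hba-a1 and 6.20 and 5.38 for Krt14 of the epidermis. Krt14 was uneven between mice, from 4.52 to 8.56 in the high-score and from 4.62 to 6.99 in the low-score muscles. Its highest values in the high class were in SCR replicates 6 (8.48) and 8 (7.86) and ANTI-210 replicate 2 (8.56). The part of these tissues in the other results was not tested.

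Some genes varied widely between mice without following the score. By a fixed rule these were the 5 genes of largest SD over the mice with overlapping classes and a difference under 0.5. They were Slc10a6, a transporter of steroid sulfates, the neutrophil attractant Cxcl1, the stress-related gene Fam107a, the cytokine Il1b and Ap1b1, a subunit of a clathrin adaptor. Cxcl1 ran from 5.86 to 10.11 in the high-score and from 5.98 to 8.09 in the low-score muscles. Il1b ran from 5.39 to 8.05 and from 5.63 to 8.62, so its highest muscle, ANTI-210 replicate 6, was in the low class. Ap1b1 is taken up under the treatments.

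Promoters of the genes were searched for 3 short motifs on both strands, in windows from 250 bases before to 50 after the annotated start, in the 14824 measured genes with such a window. The E-box CAGCTG, a palindrome, was held by 18.0% of all, 19.4% of 754 higher and 22.7% of 431 lower genes. Of 8 higher genes of the satellite cell, regenerating fibre and junction lists with a window, 2 held it, the genes Chrng and Chrna1 printed above. The ETS site GAGGAAGT was held by 3.36% of all, 7.69% of the higher and 2.78% of the lower genes, and by 3 of 26 higher genes of the macrophage, lysosome and complement lists, C1qc, Ctsc and Ctss, of which the stretches of C1qc and Ctsc printed above hold it on the other strand, as ACTTCCTC. AAGGTCA, a nuclear receptor site, was held by 4.44%, 4.38% and 5.10%. A match says only that these letters occur in the window.

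Both treatments were spread over the classes. Above the widest gap of the score stood 6 ANTI-210 and 3 SCR mice. The high class held 3 SCR and 4 ANTI-210 mice, the low class 4 SCR and 3 ANTI-210 mice, and the middle 4 of each (Fisher's exact test, high or low class by treatment, two-sided, p = 1). The score of the ANTI-210 mice ran from -1.02 to 1.38 (median 0.46) and that of the SCR mice from -1.67 to 1.54 (median -0.47). The mean difference was 0.39 ± 0.40 (SE, n = 11 per treatment), with a 95% interval from -0.44 to 1.22. A permutation test gave p = 0.330 (two-sided, 100000 resamples). A difference of this size was not told apart from the spread between mice. Among replicate numbers 1 to 3 the difference was 1.28 (n = 3 per treatment), and among numbers 4 to 11 it was 0.06 (n = 8 per treatment). These 2 differences were not told apart (permutation of treatments within each set, p = 0.122).

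The contrast was then drawn within each treatment, between the 4 highest and 4 lowest muscles, so that the calls of one treatment could be read in mice of the other. Among SCR mice 533 genes were called higher (2.88% of genes) and 240 lower (1.3%), and among ANTI-210 mice 764 (4.13%) and 451 (2.44%). Of the 533 genes 430 (80.7%) were called higher among the ANTI-210 mice as well, which is 56.3% of the 764. Of the 240 genes 167 (69.6%) were called lower there, which is 37.0% of the 451. No gene was called in opposite directions. In the ANTI-210 mice the median difference was 1.31 for the 533 genes and -1.23 for the 240 genes, beside 1.36 and -1.27 in the SCR mice that chose them. The 2 sets of mice share no animal, but the probes and the score genes are the same.

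**Figure D4:**
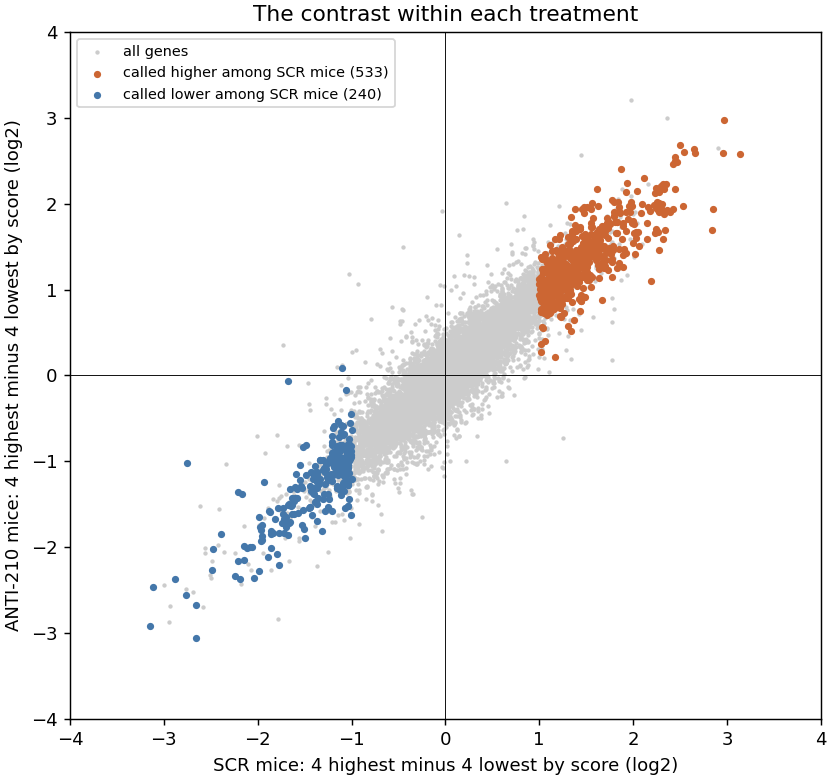
Difference between the 4 highest and 4 lowest muscles by score among ANTI-210 mice (vertical axis, log2) against that among SCR mice (horizontal axis, log2), with 1 point per gene. Genes called higher (533, orange) or lower (240, blue) among SCR mice lie with the same sign among ANTI-210 mice, except 1 lower gene.

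At equal score, the treatments differed in few genes. A limma fit with the score as a covariate gave 603 genes higher (3.26%) and 699 lower (3.77%) in ANTI-210 than in SCR mice at an unadjusted p under 0.05, 1302 in all (7.03%). With a Benjamini-Hochberg adjusted p under 0.05 there were 4 genes (0.0216%). The labels name separate mice, and p-values measure the spread between them. Without the score 601 and 3 genes passed. The score was measured after the injection, so any effect of treatment on the score itself is taken out of these values. Ap1b1, the beta subunit of the AP-1 clathrin adaptor, ran from 8.66 to 10.59 (median 8.88) in ANTI-210 and from 10.39 to 11.07 (median 10.68) in SCR mice. At equal score it was lower by 1.68 ± 0.18 (SE, difference -1.68, limma adjusted p = 7.64e-05). ANTI-210 replicate 5, at 10.59, was the only ANTI-210 mouse inside the SCR range, and without it the difference was -1.89. Ap1m1, the mu subunit of the same complex, differed by -0.65 ± 0.10 (limma adjusted p = 0.0136, and 0.0553 without SCR replicate 6).

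The other adjusted calls were genes of cartilage and tendon. Chad (chondroadherin) ran from 8.35 to 10.01 (median 9.43) in ANTI-210 and from 6.71 to 9.08 (median 8.08) in SCR mice, 1.28 ± 0.21 higher at equal score (limma adjusted p = 0.0210). Cilp2 ran from 5.18 to 5.74 against 4.64 to 5.33, close to the floor, and was higher by 0.58 ± 0.08 (limma adjusted p = 0.00684). With the replicate number as a block, Chad and Cilp2 both lost their adjusted call (limma adjusted p = 0.0915 each). Without the score the adjusted p of Chad was 0.161 in limma. Its adjusted p also passed 0.05 upwards, to between 0.0506 and 0.0720, when SCR replicate 1 or 2 or ANTI-210 replicate 1, 2, 5, 6, 7 or 10 was left out. Between high-score and low-score muscles these genes differed by -0.39 (Ap1b1), 0.00 (Ap1m1), -0.48 (Chad) and 0.00 (Cilp2), all without a call.

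The largest further differences at equal score passed the unadjusted threshold only. Angptl7 (0.95), Myl2 (0.91), Odf3l2 (0.90) and the myelin gene Mbp (0.83) were higher and Angptl4 (-0.84), Gal (-0.61) and 6430411K18Rik (-0.53) lower in ANTI-210 mice, with limma adjusted p from 0.483 to 0.657. Without the score Myl2 differed by 0.21, Odf3l2 by 0.23 and Gal by -0.07 between treatments, so their values rest on the covariate. Mbp (0.61), Angptl4 (-0.49) and 6430411K18Rik (-0.39) also missed the unadjusted threshold without the score, and only Angptl7 (0.90) kept it. A term for the interaction of treatment and score, which asks whether genes follow the score differently in ANTI-210 and SCR mice, gave 1782 genes (9.62%) at an unadjusted p under 0.05, 856 positive (4.62%) and 926 negative (5%), and 0 after adjustment (limma). Without ANTI-210 replicate 11 that count was 8, and it was 1 without SCR replicate 8, ANTI-210 replicate 4 or ANTI-210 replicate 7.

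**Figure D5:**
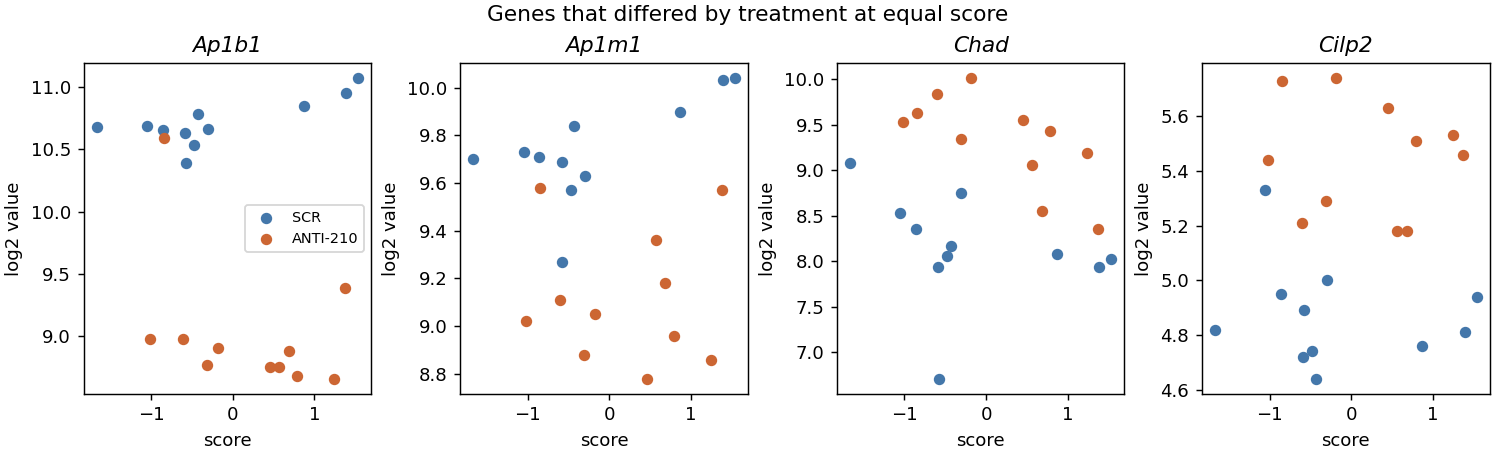
Log2 value (vertical axes) of Ap1b1, Ap1m1, Chad and Cilp2 against the score (horizontal axes), with 1 point per mouse coloured by treatment. Most ANTI-210 mice lie lower in Ap1b1 and Ap1m1 and higher in Chad and Cilp2, and the ranges of the treatments overlap in each gene (8.66 to 10.59 against 10.39 to 11.07 in Ap1b1).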

How the data were processed

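Gene expression of the ischemic gastrocnemius of 22 mice was read on Illumina MouseWG-6 v2 arrays, 1 mouse per array, from 200 ng of total RNA. Bead summaries were made in GenomeStudio by the authors, who then applied quantile normalization and removed probes by expression and quality in beadarray, whose versions no source used here gives. The deposited values cover 38563 probes and lie between 4.35 and 15.4, which was read as a log2 scale since no base is stated. The table holds 0 further value columns. Detection p-values were not used here, and a mean under 6 was called near the floor (62.6% of probes). Precision is limited by how many arrays there are and by dim probes. The labels do not say whether mice shared a chip.

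Groups and replicate numbers come from the labels. Of the probes, 32093 carry 1 gene symbol in the platform annotation, 16 several and 6454 none, and only the first were named. The probe with the highest mean stood for its gene (18524 genes). The rule for the score names 5 genes, of which 3 have a named probe. The members, gene lists and tests were chosen with earlier results of these data known. Named genes are the score genes, the 15 largest increases and decreases, up to 4 members of each list with the largest differences, the genes varying without the score, and, by treatment, those with an adjusted p under 0.05 and the 5 largest unadjusted in each direction. Other list members named in the text were chosen after their values were seen. Classes were compared without a test. Treatments were compared with limma 3.58.1 in R 4.3.3 (two-sided, Benjamini-Hochberg adjustment over 18521 genes), Fisher's exact test and permutation tests (SciPy 1.17.1). Scripts were tested on simulated data. Alternatives were other scores, class sizes and normalizations, subsets of mice, each mouse left out, other probe rules, array weights, and the replicate number as a block.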

Additional observations from a re-analysis of the deposited data

Results flagged for a closer look

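In classes of 7 muscles a value was set aside for a closer look where its gap to the nearest other, as a share of the range of the class, passed Dixon's 95% value. Of 70 classes tested, for 34 named genes and the score, 6 held such a value. Dixon's rate of about 1 in 20 holds for independent random samples. These classes are ends of a ranking and most of the genes were chosen by their differences, so the 6 are not set against that rate. Among low-score muscles SCR replicate 11 had the lowest score (share 0.569), the lowest Mymk at 4.82 beside 6.20 (share 0.616) and the lowest Tnc at 8.21 beside 9.14 (share 0.620). SCR replicate 1 had the highest Mmp12 of the low-score muscles, 6.65 beside 4.90 (share 0.825). ANTI-210 replicate 7 had the lowest Tspan8, 10.33 beside 10.84 (share 0.637), and the lowest Dusp26, 10.37 beside 10.66 (share 0.569). No explanation of these values was tested.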

How the results depend on the processing

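The calls between classes were 1472 genes with 7 muscles a side. Leaving out each mouse gave 767 to 950 higher and 369 to 526 lower genes, with both lowest counts without SCR replicate 6. The 5 highest against the 5 lowest gave 815 lower genes, and 11 against 11, which holds the middle muscles, gave 95 higher and 16 lower genes. SCR mice alone gave 533 and 240. Scores from the macrophage genes or Myog alone, loess and median centring kept both counts within 1.5 times. The treatment counts moved more. At an unadjusted p under 0.05 there were 601 genes without the score, 784 with the class in its place, 2461 over all probes and 823 over the brighter genes, beside 1302. Leaving out each mouse gave 0 to 8 genes for the adjusted interaction. Some of these settings enter other numbers of mice, probes or genes, and the cause of the shifts was not tested. Same-numbered mice are not stated to be paired. Their deviations correlated from -0.04 to 0.63 over 11 pairs, 10 over 0.1, and 5 mice correlated best with their own number. With the replicate number as a block, 2292 genes passed unadjusted and 2 adjusted by treatment, Ap1b1 and Ap1m1, while Chad and Cilp2 lost their call (limma adjusted p = 0.0915 each), and 786 by the interaction unadjusted. The score then gave p = 0.439 (exact sign-flip permutation test, n = 11 pairs). No tested value changed direction. Dim probes limit what can be seen, since 160 of the called genes had a mean under 6.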
